A study of Mus musculus with 6 samples.

Results

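Cholesterol in the brain is made locally and leaves astrocytes on lipoprotein particles. ATP-binding cassette exporters load lipid onto the apolipoproteins, an esterifying enzyme matures the particle, and neurons and other cells take it up through receptors of the low-density lipoprotein family. The liver X receptors, a pair of oxysterol-activated nuclear receptors, switch on many of these genes. The 10 genes described here were Apoe, Apod, Apoc1, Clu, Abca1, Abcg1, Lcat, Lpl, Nr1h2 and Nr1h3, chosen by symbol as lipid carriers, exporters, lipid enzymes and their nuclear receptors. All 10 were found among the 24421 genes of the deposited table.

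The libraries were made from cortical cells sorted by mCherry fluorescence at postnatal day 21. All animals were CD51-Flp mice that had received AAV-GFAP-FSF-hM3D-mCherry after birth, so receptor expression was tied to Flp in CD51-positive cells (CD51 is integrin alpha V) and to the GFAP promoter. Animals were injected 2 times per day from day 7 to day 21, with clozapine-N-oxide (CNO), the activator of the Gq-coupled designer receptor hM3D, in 3 libraries (CNO 1, 2 and 3), or with saline in 3 libraries (saline 3, 4 and 5). No CNO group without hM3D was among the samples, so effects of CNO itself and of the receptor cannot be told apart. Whether an animal or a pool of animals stands behind each library is not in the labels, nor is a strain or sex. The p-values therefore measure only the spread between these libraries.

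CNO 1 was the shallowest library with 3908076 reads, and CNO 2 the deepest with 19224186. CNO 3 had 17102657 reads, and the saline libraries 12010901 to 19052161. Genes with a read numbered 8618, 12820 and 10883 in CNO 1, 2 and 3, and 14141 to 14491 in saline. The part of depth in these numbers was not tested. The standard deviation of log2 values was larger among CNO than among saline libraries for 8 of the 10 genes. Transcripts at low levels were often missing from CNO libraries. Among tested genes with a mean of 10 to 100 normalized counts, 72.0%, 23.4% and 49.2% were at 0 reads in CNO 1, 2 and 3, against 9.36% to 10.5% in the saline libraries. Markers of the labelled cell type, astrocytes, were all detected in both groups, but oligodendrocyte markers took more reads, 11.1% to 24.5% in CNO and 5.33% to 7.87% in saline. In such bulk samples, fewer cells of a type and less RNA per cell cannot be told apart.

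The carriers Apoe and Clu were the most abundant of the 10 genes in both groups, and neither passed the test. In normalized counts, Apoe averaged 1.82 times its saline level in CNO, and the exporter Abca1 had nearly equal means. By share of reads, only CNO 1 exceeded all saline libraries for Apoe, and Abca1 was lower in every CNO library. Normalized counts summed to more in each CNO library than in each saline library. Shares of reads therefore place all genes lower in CNO, relative to saline, than normalized counts do. How many of all tested genes were lower in every CNO library by share of reads was not counted. The lipoprotein enzyme Lcat and the receptor Nr1h2 had lower values in all CNO libraries than in all saline libraries. The test was limma on log2(normalized count + 1) over 13028 genes whose mean was at least 10, with Benjamini-Hochberg adjustment at 0.05. It called 0 of the 9 genes with such a mean, beside 0.0154% of all genes tested. The called genes were 2 oligodendrocyte markers, neither of them among the 10. Nr1h3 was below the minimum mean and was not tested. At an unadjusted p under 0.05 stood 1 gene higher in CNO (Apoe, beside 2.28% of all tested genes) and 1 lower (Nr1h2, beside 7.25%). On the recovered reads, edgeR and limma-voom called 0 of the 9 (edgeR 0.0% and limma-voom 0.123% of all genes), with 0 and 3 of them at an unadjusted p under 0.05. DESeq2 called 0 of the 7 to which it gave an adjusted p (2.15% of all such genes), with 1 at an unadjusted p under 0.05. In limma, 2 of the 9 genes had a positive log2 fold change and 7 a negative one, as did 68.3% of all tested genes. Their median was -0.75 beside -0.89 over all tested genes.

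**Figure D1:**
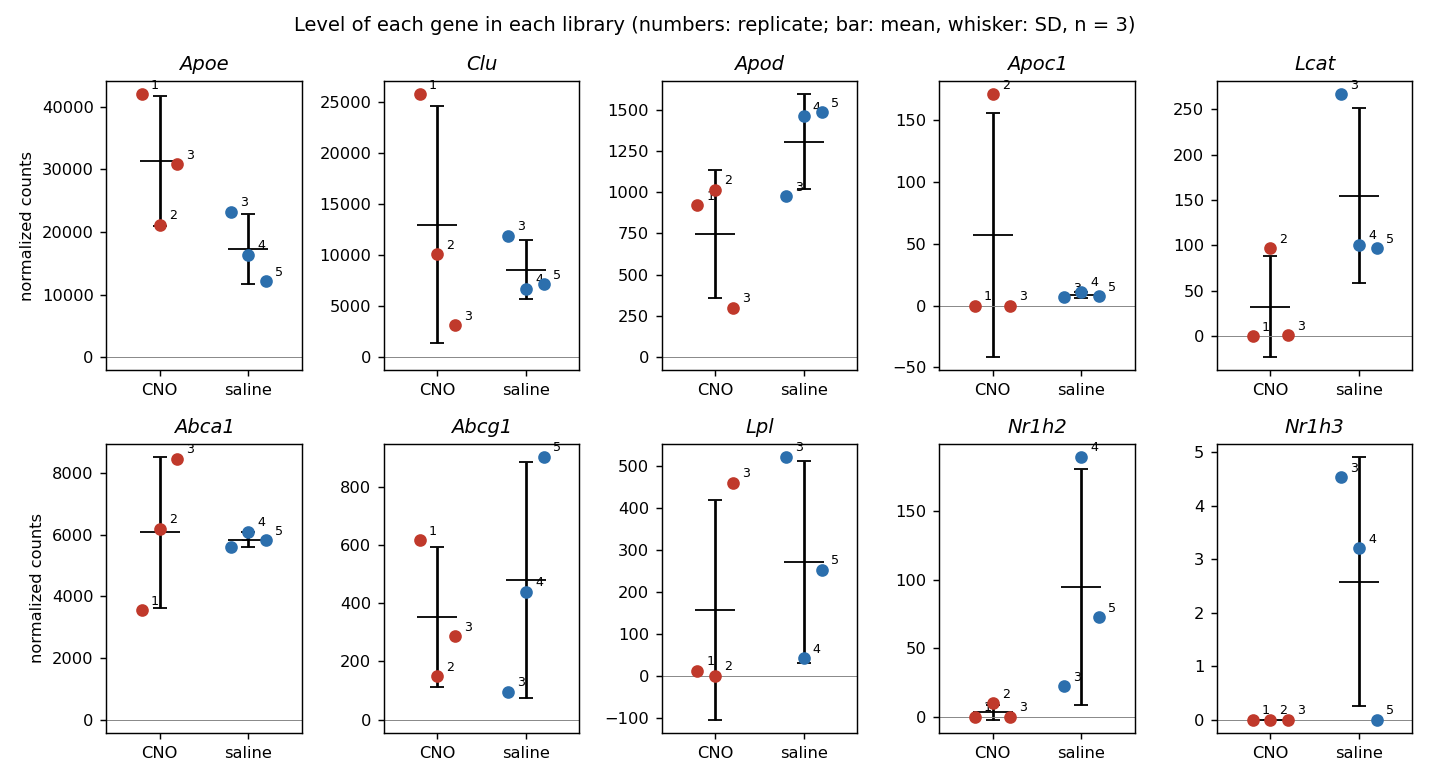
Normalized counts (y axis, linear, a separate scale for each gene) of the 10 genes in each CNO library (red) and saline library (blue), numbered by replicate, with the mean (bar) and SD (whisker, n = 3 each; some whiskers reach below 0, which no count can). On this scale Lcat and Nr1h2 are the 2 genes whose groups do not overlap, and the saline libraries of Abca1 lie within 1.08-fold of one another.

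Apoe encodes the main lipoprotein carrier of the brain, made by astrocytes and also by microglia and macrophages. It stood at 42040, 21180 and 30827 normalized counts in CNO 1, 2 and 3, against 23215, 16345 and 12130 in saline 3, 4 and 5. CNO 2 lay below saline 3, so the groups overlapped, while CNO 1 and CNO 3 lay above all saline libraries. Apoe averaged 31349 ± 10440 in CNO and 17230 ± 5595 in saline (SD, n = 3 each). Its log2 fold change was 0.86 ± 0.34 (SE), with a 95% interval of 0.10 to 1.61 and a limma adjusted p of 0.496. It stood 1.75 above the median of all tested genes, but that median depends on genes with zeros. The 107 most abundant genes, those with a mean of 10000 or more, had a median of 0.60, and Apoe stood 0.26 above it. With quantile scaling, the log2 fold change of Apoe was 0.047. Its share of reads was above that of all saline libraries in CNO 1 alone. On that scale CNO 3 lay below saline 3, and CNO 2 lay below saline 3 and saline 4.

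Clu encodes clusterin, also called apolipoprotein J, a secreted chaperone that astrocytes release on lipoprotein particles. It stood at 25761, 10085 and 3113 normalized counts in CNO 1, 2 and 3, against 11905, 6698 and 7134 in the saline libraries. The CNO values enclosed all saline values, with an 8.27-fold distance between the highest and lowest CNO library and a 1.78-fold distance in saline. The log2 fold change was 0.17 ± 0.63 (SE), with an interval of -1.21 to 1.55 (limma adjusted p = 0.927). Its sign turned without CNO 1 (-0.56) and with quantile scaling (-0.53). Apoe and Clu parted in 1 library. Apoe was 1.63, 2.10 and 9.90 times Clu in CNO 1, 2 and 3, and 1.70 to 2.44 times Clu in the saline libraries.

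Clu and the summed astrocyte markers were both highest in CNO 1 and lowest in CNO 3, while CNO 2 and saline 3 stood in opposite order. Those 12 markers summed to 634898, 391396 and 187833 normalized counts in CNO 1, 2 and 3, against 326635, 215897 and 230057 in saline 3, 4 and 5. All 12 had log2 fold changes above 0, with a median of 0.49, and 0 passed in limma. Over all tested genes, the median was 0.33 for means of 1000 to 10000 and 0.60 for means of 10000 or more. By share of reads, the 12 markers took 1.13% to 3.84% in CNO and 2.25% to 3.31% in saline. Clu equalled 4.06%, 2.58% and 1.66% of that sum in the CNO libraries and 3.10% to 3.64% in the saline libraries. Apoe equalled 6.62%, 5.41% and 16.4% of it in CNO and 5.27% to 7.57% in saline, so its value in CNO 3 stood apart from the other 5 libraries. CNO 3 also had the highest sums of markers of microglia, 172074 normalized counts, and of border-associated macrophages, 93496. Microglial markers summed to 58284 to 172074 in CNO and 98500 to 139188 in saline. By share of reads they took 0.410% to 1.04% in CNO and 1.02% to 1.45% in saline, and the highest was saline 5. Of these 12 markers, 3 had log2 fold changes above 0 and 9 below. Of them, 2 were lower in every CNO library, beside 12.5% of all tested genes. Markers of border-associated macrophages summed to 48666 to 93496 in CNO and 24533 to 37282 in saline, without overlap. As a share of reads they did overlap, at 0.328% to 0.564% in CNO and 0.249% to 0.388% in saline. Of the 7 markers, 3 were higher in every CNO library, beside 4.57% of all tested genes. None of the markers of these 3 cell types was at 0 in a whole group. Their part in the values of Apoe and Clu was not tested.

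**Figure D2:**
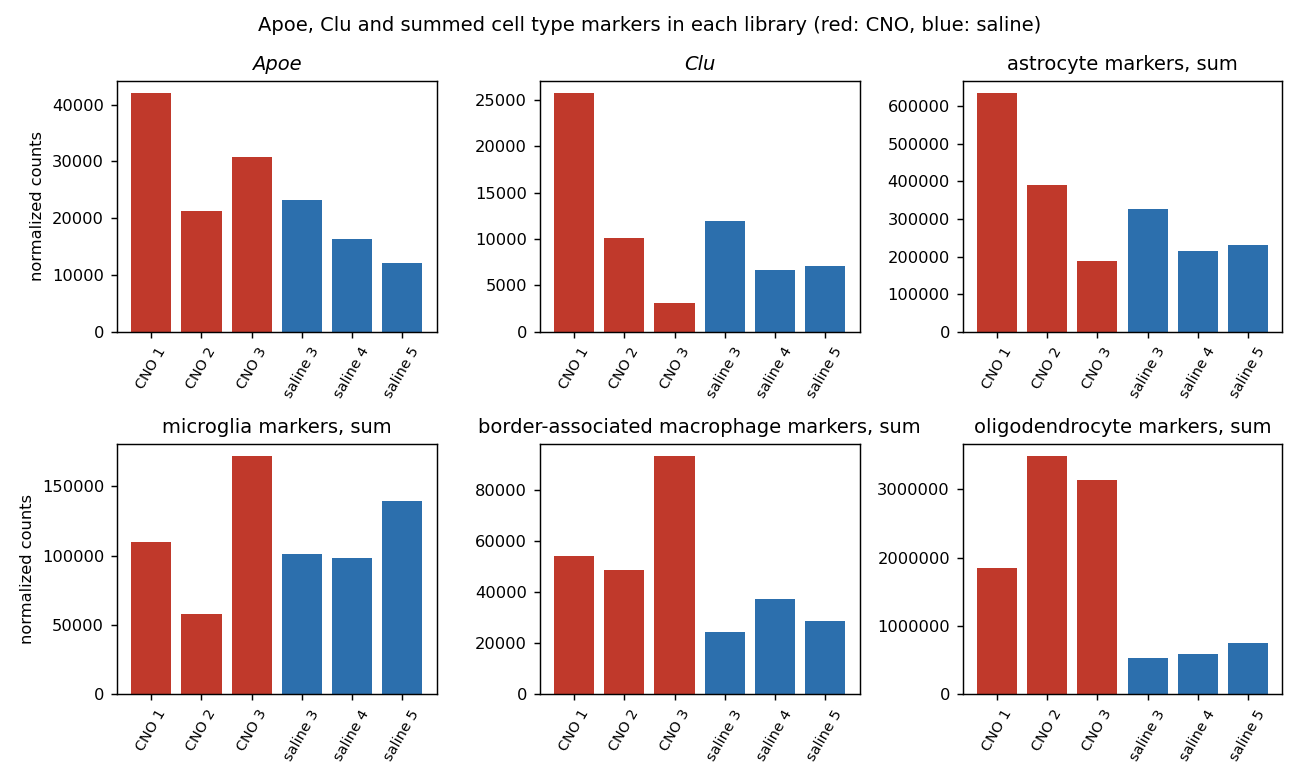
Normalized counts (y axis, from 0, a separate scale for each panel) of Apoe, Clu and 4 summed marker lists in each library, CNO in red and saline in blue. Clu and the astrocyte sum are both highest in CNO 1 and lowest in CNO 3, whereas the sums of microglial and border-associated macrophage markers are highest in CNO 3, and the sums of border-associated macrophage and oligodendrocyte markers, in normalized counts, do not overlap between the groups.

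Apod encodes apolipoprotein D, a lipocalin that binds small hydrophobic molecules and is made by oligodendrocytes, fibroblasts and other cells. It stood at 921, 1014 and 301 normalized counts in CNO 1, 2 and 3, against 975, 1462 and 1485 in saline 3, 4 and 5. Only CNO 2 exceeded a saline library, saline 3, and by share of reads no CNO library did. Shares of reads lower all genes in CNO relative to normalized counts, and how many tested genes did the same was not counted. The log2 fold change was -0.97 ± 0.70 (SE; limma adjusted p = 0.642). Without CNO 3 it was -0.41. Oligodendrocyte markers went the other way, with sums of 1841017 to 3487358 in CNO and 525544 to 754645 in saline. Of these 12 markers, 8 had log2 fold changes above 0 and 4 below, and 2 passed in limma. The values of 7 were higher in every CNO library, beside 4.57% of all tested genes, and none was at 0 in a whole group. Fibroblast markers overlapped, with sums of 2906 to 6847 in CNO and 2039 to 4390 in saline.

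Apoc1 encodes a small exchangeable apolipoprotein that can block lipoprotein uptake and that macrophages express. It was read in 1 CNO library, CNO 2, with 231 reads, and had 0 reads in CNO 1 and CNO 3, against 12, 14 and 15 reads in saline 3, 4 and 5. In normalized counts this was 171 in CNO 2 and 6.80 to 11.2 in saline. The log2 fold change was -0.75 while the ratio of means was 6.69, so the direction depended on the measure, and it rested on CNO 2 (limma adjusted p = 0.907). Without CNO 2, the log2 fold change was -3.22. CNO 2 had the lowest sum of microglial markers of the 6 libraries. Its sum of border-associated macrophage markers, 48666 normalized counts, lay above the saline range of 24533 to 37282. As a share of reads, that sum took 0.342%, within the saline range of 0.249% to 0.388%. The part of these cells in Apoc1 was not tested. Apoc1 lies beside Apoe on chromosome 7 (19689481 to 19692660 and 19696109 to 19699188 on GRCm38, both on the minus strand). CNO 2, the only CNO library with Apoc1 reads, had the lowest Apoe value among the CNO libraries.

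Lcat encodes lecithin-cholesterol acyltransferase, which esterifies cholesterol on lipoproteins and is activated by Apoe in the brain. It stood at 0, 96.9 and 0.970 normalized counts in CNO 1, 2 and 3, from 0, 131 and 1 reads, against 266, 101 and 97.1 in saline 3, 4 and 5. The groups did not overlap, by a margin of less than 1 normalized count between CNO 2 and saline 5. Lcat averaged 32.6 ± 55.7 in CNO and 155 ± 96.7 in saline, a ratio of 0.211. Its log2 fold change was -4.59 ± 2.23 (SE), with an interval of -9.48 to 0.30 (limma adjusted p = 0.550). In normalized counts, 2 of the 9 tested genes had lower values in every CNO library, Lcat and Nr1h2, beside 12.5% of all tested genes. For both, the exact permutation test over the libraries gave a 2-sided p of 0.1, the smallest that 3 against 3 allows. The mean saline level of Lcat would give 36.6 reads in CNO 1 and 160 in CNO 3. The 4392 genes with a mean of 10 to 100, Lcat among them, had a median log2 fold change of -2.28, and Lcat stood at -2.31 relative to it. Zeros were common among these genes in CNO 1 and CNO 3, and their part was not tested.

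The ATP-binding cassette exporters showed 2 patterns of spread. Abca1, which loads cholesterol and phospholipid onto lipid-poor apolipoproteins, stood at 3562, 6202 and 8464 normalized counts in CNO 1, 2 and 3, against 5620, 6097 and 5828 in saline. The saline libraries lay within 1.08-fold of one another and the CNO libraries lay on both sides of them, 2.38-fold apart. Means were 6076 ± 2453 in CNO and 5848 ± 239 in saline. By share of reads, a scale that lowers all genes in CNO relative to normalized counts, all CNO libraries lay below all saline libraries. The share of all tested genes that did so was not counted. The log2 fold change was -0.03 ± 0.41 (SE), with an interval of -0.94 to 0.87 (limma adjusted p = 0.983), which leaves room for a change in either direction. Its sign turned in 4 alternatives, among them DESeq2 (0.057) and without CNO 1 (0.31). Abcg1, which passes cholesterol on to particles that already carry lipid, stood at 617, 150 and 287 in CNO 1, 2 and 3, against 96.4, 439 and 902 in saline 3, 4 and 5. Here the saline libraries spread 9.36-fold and enclosed all CNO libraries. The log2 fold change was -0.17 ± 1.10 (SE; limma adjusted p = 0.962), with the sign turned without CNO 2 (0.32), without saline 4 (0.016) or without saline 5 (0.53).

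Abca1 is a textbook target of the liver X receptors, which bind with a retinoid X receptor to direct repeats of a hexamer spaced by a few bases. RefSeq promoter windows (GRCm38.p6, from 250 bases before to 50 after a start site) were matched for 6 of the 10 genes, Abca1, Apoe, Apod, Lcat, Nr1h2 and Nr1h3. The motif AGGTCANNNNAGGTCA was searched on both strands with up to 3 mismatches outside the spacer, a limit widened after narrower searches found no match in these 6. It was then found in the windows of Abca1 and Lcat. They are shown because, in normalized counts, the first had nearly equal group means while the other was lower in every CNO library. Of all 32851 windows in the table, 21.9% held such a match, so a match alone does not show binding. Whether either match is bound was not tested. Capitals mark the match, which begins at position -67 in Abca1 (on the opposite strand) and at position -22 in Lcat, counted from the start site. The Abca1 window is chr4:53159846-53160145 and the Lcat window chr8:105943353-105943652, both on the minus strand.
Abca1: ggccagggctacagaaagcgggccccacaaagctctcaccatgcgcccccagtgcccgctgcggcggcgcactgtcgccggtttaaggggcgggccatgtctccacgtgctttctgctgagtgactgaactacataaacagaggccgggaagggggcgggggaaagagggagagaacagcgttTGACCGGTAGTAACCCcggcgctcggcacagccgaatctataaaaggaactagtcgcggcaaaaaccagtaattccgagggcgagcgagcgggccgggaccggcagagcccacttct
Lcat: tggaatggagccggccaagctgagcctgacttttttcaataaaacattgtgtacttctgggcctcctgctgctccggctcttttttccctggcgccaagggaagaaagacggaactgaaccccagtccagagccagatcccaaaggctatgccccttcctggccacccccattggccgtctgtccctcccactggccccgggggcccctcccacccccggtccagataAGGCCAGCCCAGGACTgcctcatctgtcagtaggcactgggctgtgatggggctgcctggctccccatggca

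Lpl encodes lipoprotein lipase, which releases fatty acids from triglyceride-rich particles. It stood at 12.7, 0 and 460 normalized counts in CNO 1, 2 and 3, from 3, 0 and 474 reads, against 521, 41.6 and 253 in saline 3, 4 and 5. CNO 3 lay within the saline values, and CNO 1 and CNO 2 lay below all of them. The mean saline level would give 64.3 reads in CNO 1 and 367 in CNO 2. The log2 fold change was -3.27 ± 2.31 (SE; limma adjusted p = 0.638), and it was -1.17 without CNO 2 and -5.59 without CNO 3. Among the CNO libraries, Lpl was highest in CNO 3, and so were the markers of oligodendrocyte precursors, which also express Lpl. Sums of microglial, border-associated macrophage, fibroblast, mural and endothelial markers were highest there too. Precursor markers summed to 934, 3426 and 9096 in CNO 1, 2 and 3, against 2237 to 4354 in saline. Of these 7 markers, 1 had a log2 fold change above 0 and 6 below, and none was at 0 in a whole group. The part of these cells in Lpl was not tested.

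Of the liver X receptors, Nr1h2 (the broadly expressed beta form) had 0, 13 and 0 reads in CNO 1, 2 and 3, against 39, 237 and 144 reads in saline 3, 4 and 5. In normalized counts these were 0, 9.62 and 0 in CNO, and 22.1, 190 and 72.5 in saline. All CNO libraries lay below all saline libraries, which themselves spread 8.58-fold. Nr1h2 averaged 3.21 ± 5.55 in CNO and 94.8 ± 86.0 in saline, a ratio of 0.0338. The mean saline level would give 22.4, 128 and 97.7 reads in CNO 1, 2 and 3. Its log2 fold change was -4.97 ± 2.01 (SE), with an interval of -9.38 to -0.55 and an unadjusted p of 0.0307, and the limma adjusted p was 0.497. Relative to the median of all tested genes it stood at -4.08, and relative to that of the 4392 genes with a mean of 10 to 100 at -2.69. In these genes zeros were common in CNO 1 and CNO 3, the libraries where Nr1h2 was at 0, and their part was not tested. Nr1h3, the alpha form, had 0 reads in each CNO library, against 8, 4 and 0 reads in saline 3, 4 and 5. Its saline mean of 2.58 normalized counts would give 0.610, 3.49 and 2.66 reads in CNO 1, 2 and 3. A count of 0 allows up to 3 reads per library, so in CNO 1 and CNO 3 the saline level itself would not stand out from 0, and in CNO 2 it would by less than 1 read. No fold is given for Nr1h3. Its exons share 34 bases with the transcript Gm13783, and no other gene of the 10 shared annotated exon bases with another gene.

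**Figure D3:**
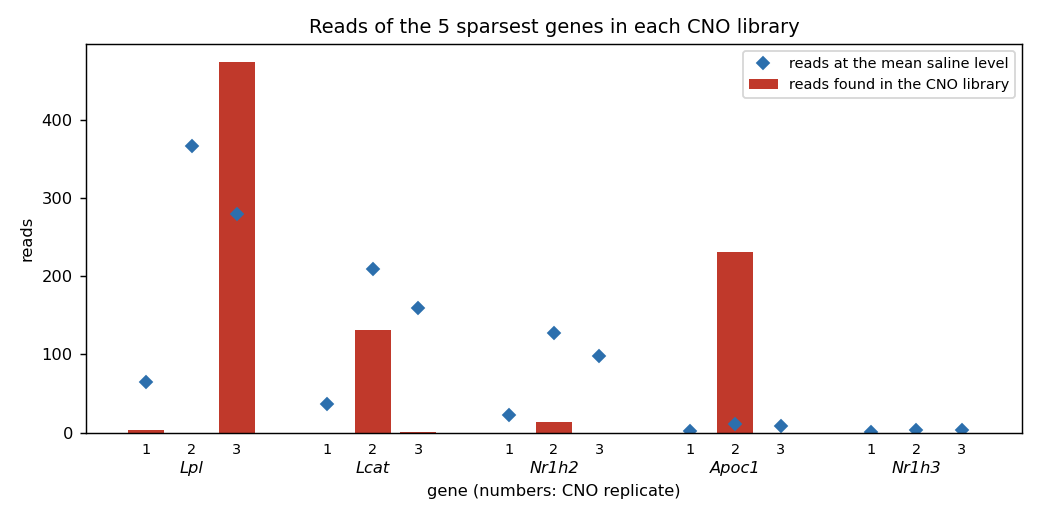
Reads (y axis, from 0) of the 5 genes with the fewest reads in CNO 1, 2 and 3 (red bars). Blue diamonds are the reads that the mean saline level, in normalized counts, would give with the size factor of that library. For Nr1h2 the bars reach 0, 13 and 0 where the diamonds stand at 22.4, 128 and 97.7, and for Nr1h3 no diamond exceeds 3.49 reads.

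**Figure D4:**
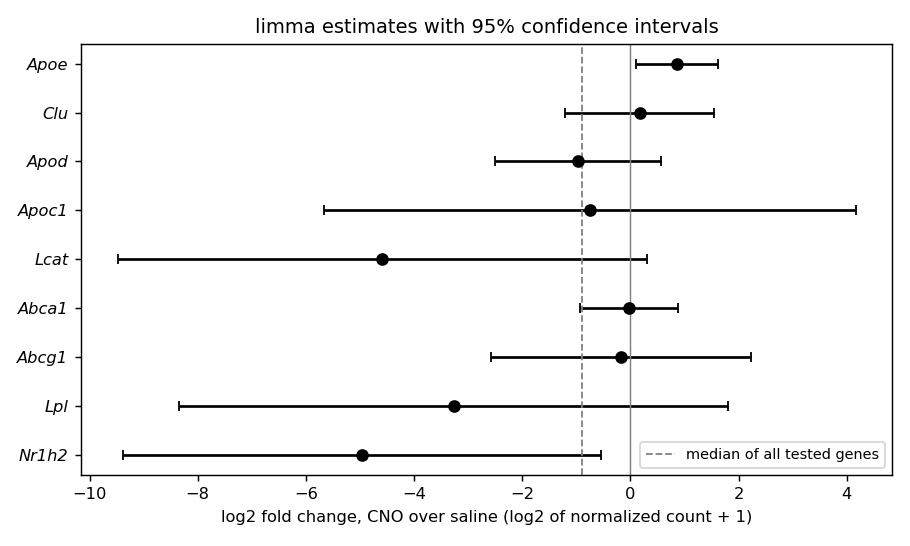
Log2 fold changes of CNO over saline (x axis, limma on log2 of normalized count + 1) of the 9 tested genes with 95% confidence intervals, beside 0 (solid line) and the median of all tested genes (dashed line, -0.89). The interval of Apoe lies above 0 and that of Nr1h2 below it before adjustment, and Abca1 and Apoe have the narrowest intervals.

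Per kilobase of merged exon length (GENCODE M21), the levels of the 10 genes spanned several orders of magnitude in both groups. Apoe averaged 14663 ± 4883 normalized counts per kilobase in CNO and 8059 ± 2617 in saline. Clu followed with 3778 ± 3375 in CNO and 2496 ± 840 in saline, and Abca1 with 586 ± 237 in CNO and 564 ± 23.1 in saline. Apod was next with 289 ± 151 in CNO and 507 ± 112 in saline. The libraries of Apoe and Clu, and of Clu and Abca1, did not overlap on this scale in either group, whereas those of Abca1 and Apod did in both. Below Apod the order was Apoc1, Abcg1, Lcat, Lpl, Nr1h2 and Nr1h3 in CNO, where each gene from Abca1 down overlapped the next. In saline it was Lcat, Abcg1, Nr1h2, Lpl, Apoc1 and Nr1h3, where Apod lay clear of Lcat and Apoc1 of Nr1h3. Lengths of transcripts actually used are not known, so the order is approximate.

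The genes whose levels moved most like those of Apoe across the 6 libraries were Rn45s, Fez2 and Ep300. Likeness was the mean absolute difference of centred log2 levels over 2178 other genes with a mean of at least 1000 and a read in every library. It was 0.16 for Rn45s, 0.17 for Fez2 and 0.17 for Ep300, against a median of 0.67 over those genes. Rn45s is the ribosomal RNA precursor, and it took 3.30% to 6.76% of reads in CNO and 3.14% to 6.15% in saline. The genes most like Clu were Acsl6 at 0.13, Tspan7 at 0.13 and Pon2 at 0.15, against a median of 0.92. All values share 6 libraries and their size factors.

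Other genes of the pathway were counted in lists, and 0 of their tested members passed in limma. Among the receptors and uptake proteins, 13 of 15 were tested, 2 had log2 fold changes above 0 and 11 below, with a median of -0.63. Msr1, a scavenger receptor of macrophages, averaged 2280 ± 836 in CNO and 917 ± 177 in saline. Its log2 fold change was 1.27 ± 0.56 (SE; limma adjusted p = 0.522). Msr1 and Cd36, another scavenger receptor, which was named after its values were seen, were higher in every CNO library. Over all tested genes, 4.57% were. Mylip, a liver X receptor target that marks low-density lipoprotein receptors for breakdown, averaged 254 ± 219 in CNO and 720 ± 447 in saline. Lrp4, a relative of those receptors, averaged 660 ± 593 in CNO and 1292 ± 465 in saline.

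Among the retinoid X receptors and coregulators, 9 of 10 were tested, 4 above 0 and 5 below, with a median of -0.07. Ncoa2, a nuclear receptor coactivator, stood at 6571, 3193 and 6451 normalized counts in CNO 1, 2 and 3, against 2080, 1888 and 2251 in saline. It was higher in every CNO library, beside 4.57% of all tested genes. So was the acetyltransferase Ep300, with means of 5955 ± 1068 in CNO and 3076 ± 772 in saline. Their log2 fold changes were 1.31 ± 0.46 (limma adjusted p = 0.488) and 0.97 ± 0.41 (adjusted p = 0.512). Ncoa3, another coactivator, had 1 read in CNO 1 (4.23 normalized counts), 804 and 1644 normalized counts in CNO 2 and 3, and 1009 to 1479 in saline.

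Other target genes of the liver X receptors did not share a direction. Of 12, 9 were tested, 4 above 0 and 5 below, with a median of -0.02. Scd1, a fatty acid desaturase, stood at 5912, 11331 and 3759 in CNO 1, 2 and 3, against 2134, 2302 and 3043 in saline. Its log2 fold change was 1.36 ± 0.48 (SE; limma adjusted p = 0.488). Srebf1, which encodes the transcription factor of lipid synthesis that liver X receptors induce, averaged 1177 ± 710 in CNO and 386 ± 91.6 in saline. Its limma adjusted p was 0.559. Both were higher in every CNO library, beside 4.57% of all tested genes. The small G protein gene Arl4c was lower in every one, beside 12.5%. It stood at 0, 558 and 766 in CNO and 991 to 1452 in saline (limma adjusted p = 0.551).

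Among the other ABCA and ABCG transporters, 10 of 15 were tested, 2 above 0 and 8 below, with a median of -1.05. Abca7, a close relative of Abca1, stood at 0, 11.1 and 0 in CNO 1, 2 and 3, against 119, 46.4 and 177 in saline 3, 4 and 5. Its log2 fold change was -5.45 ± 2.02 (SE), with a limma adjusted p of 0.488. Abca3, a phospholipid transporter, stood at 0, 161 and 181 in CNO, against 779, 974 and 227 in saline. Both were lower in every CNO library, beside 12.5% of all tested genes. Abca8a, a further member, stood at 194, 0 and 11.6 in CNO, against 0.567, 0 and 0 in saline.

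Among genes of sterol traffic, esterification and oxysterols, 15 of 16 were tested, 3 above 0 and 12 below, with a median of -1.64. Lipa, the lysosomal acid lipase, averaged 557 ± 529 in CNO and 1044 ± 115 in saline. Cyp7b1, an oxysterol hydroxylase, averaged 125 ± 181 in CNO and 315 ± 137 in saline. Nceh1, which hydrolyses cholesteryl esters, averaged 165 ± 267 in CNO and 236 ± 66.7 in saline. The 3 genes overlapped between groups, and their limma adjusted p ran from 0.590 to 0.609. Osbp and Soat1, named after their values were seen, were lower in every CNO library, beside 12.5% of all tested genes.

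Of the lipase partners and related lipases, 6 of 10 were tested, 2 above 0 and 4 below, with a median of -0.31. Lmf1, which folds lipoprotein lipase, stood at 0, 0.740 and 81.5 in CNO, against 13.04, 48.0 and 960 in saline. Its limma adjusted p was 0.598. Mgll, the monoglyceride lipase, averaged 872 ± 500 in CNO and 1200 ± 332 in saline. Lipe, the hormone-sensitive lipase, stood at 0, 30.3 and 851 in CNO, against 173, 161 and 28.7 in saline. Of 11 other apolipoproteins, 2 reached the minimum mean, Apob and Apoa2. Apob had 3 reads over the CNO libraries and averaged 21.5 ± 20.7 normalized counts in saline. Apoa2 had 0 reads in each CNO library, and in saline its 75.4 normalized counts of saline 3 made up nearly all of its mean.

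Genes around the Apoe cluster were counted apart from Apoe and Apoc1. Of 9 listed symbols, 8 were in the table and 5 were tested, 1 above 0 and 4 below, with a median of -1.26, where 68.3% of all tested genes were below 0. Relb, a subunit of NF-kappa B, stood at 0, 5.92 and 0 in CNO 1, 2 and 3, against 56.7, 48.8 and 71.5 in saline. Pvrl2, a nectin, stood at 0, 2.22 and 0 in CNO, against 15.3, 53.6 and 41.8 in saline. Both were lower in every CNO library, beside 12.5% of all tested genes, with limma adjusted p of 0.491 for each. Clptm1, a membrane protein, averaged 1243 ± 802 in CNO and 1428 ± 144 in saline. Apoc2 and Apoc4 were below the minimum mean.

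**Figure D5:**
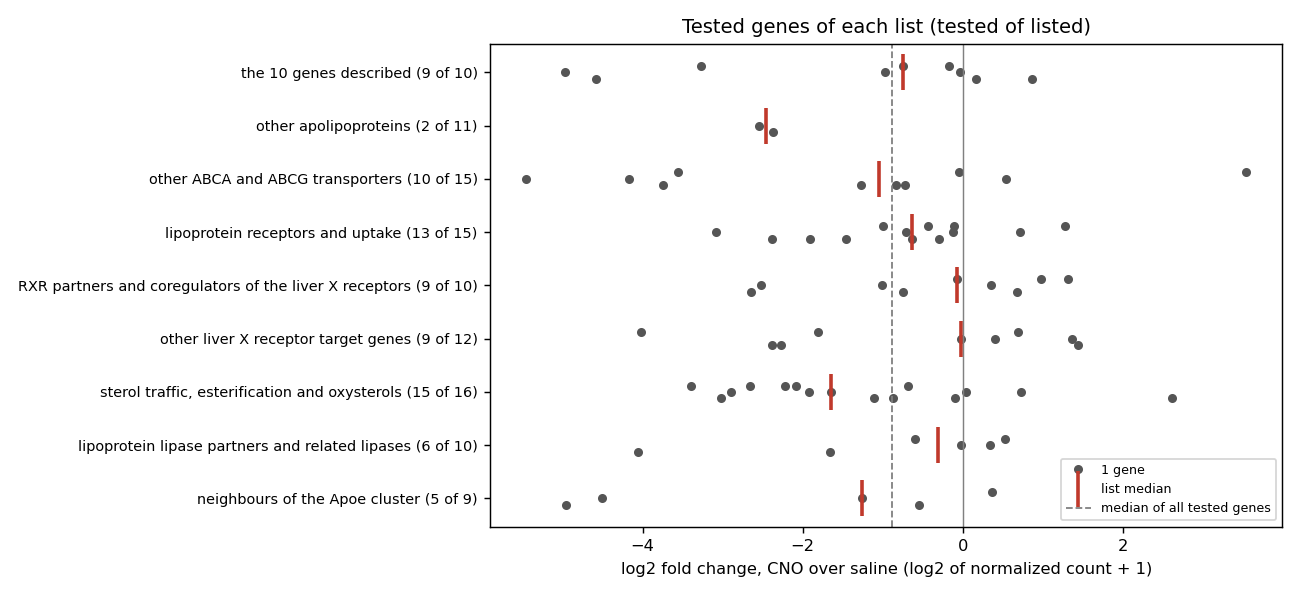
Log2 fold changes of CNO over saline (x axis, limma on log2 of normalized count + 1) of the tested genes of each list, 1 point a gene (small vertical shifts only separate points), with the list median (red bar), 0 (solid line) and the median of all tested genes (dashed line, -0.89). Medians run from -2.46 for the 2 other apolipoproteins to -0.02 for the other liver X receptor targets, and points lie on both sides of 0 in each list other than the other apolipoproteins.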

How the data were processed

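RNA of 3 CNO and 3 saline libraries was measured, from 10 ng of total RNA each per the labels' protocols. STAR 2.5.0a, DESeq2 1.20.0, Trimmomatic 0.4, MultiQC 0.9, FastQC 0.10.1 and the build mm10 are named in the submitters' processing notes. How reads were counted, with which annotation and strand setting, is not given in the sources used here. The deposited values are a signal, counts per gene divided by 1 size factor per library by the authors, per the file's own values. In each library 100% of values were whole multiples of 1 step (tolerance 1e-06 reads), which gave back whole reads. The step was 4.23 normalized counts in CNO 1 and lay between 0.503 and 0.970 in the others. Floors and reads cover counting error only, since no molecular identifiers were used. All columns matched a library.

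Each gene was tested with limma 3.58.1 (R 4.3.3, eBayes with a variance trend, 2-sided) on log2(normalized count + 1), over 13028 genes whose mean reached at least 10, with adjustment over all of them. Fold changes on this scale understate changes of low genes, and for genes with zeros they can be larger than the ratio of means, or opposite in sign. The reads served limma-voom, edgeR 4.0.16 and DESeq2 1.42.0, and edgeR called 0 genes and DESeq2 242. The method was tested on simulated reads with large changes and a low spread, the same for both groups. Spread and zeros differed between the groups here, so that test does not show how many changes limma would miss in these data. Coordinates and exon lengths came from GENCODE M21 on GRCm38, the assembly of mm10.

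The 10 genes and all lists were chosen with earlier results of these data known. Up to 3 genes with the smallest p were named from each pathway list, and 3 most like Apoe and Clu. Alternatives were other pseudocounts, filters, scalings, weights and tools, an Xist covariate, and each library left out. Figures were drawn with matplotlib 3.10.9.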

Additional observations from a re-analysis of the deposited data

How the results depend on the processing

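No paired analysis was possible because the groups share only replicate number 3. In all 19 alternatives, the count of the 10 genes that were called stayed at 0, but not every gene was tested in each. Nr1h3 was tested only without a filter, and a minimum mean of 50 left out Apoc1 and Nr1h2. A read in every library was found for 5 of the 10, and DESeq2 gave an adjusted p to 7. A gene left out could not be called. The 2 calls among all genes became 0 with edgeR, quantile scaling, a minimum mean of 50, no variance trend, only genes with a read in every library (added after the values were seen) and any 1 library left out (0 to 0). They became 11 with array weights, 16 with limma-voom and 242 with DESeq2 (66 higher and 176 lower). Log2 fold changes kept their sign in every alternative run for Apoe (0.047 to 1.11), Apod (-1.32 to -0.41), Lcat (-6.63 to -2.13), Nr1h2 (-6.10 to -2.29) and Lpl (-5.59 to -0.78).

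For 4 genes the sign turned, and the cause was not tested. Apoc1 turned with a pseudocount of 8 (0.46), quantile scaling (2.27), array weights (0.54), edgeR (2.68) and DESeq2 (2.75, with no p), and its range was -3.22 to 0.49 with 1 library left out, where it turned without CNO 1 or CNO 3. Clu turned with quantile scaling (-0.53), array weights (-0.022) and limma-voom (-0.25), and ranged from -0.56 without CNO 1 to 0.96 without CNO 3. Abca1 turned with array weights (0.083), limma-voom (0.037) and DESeq2 (0.057), and ranged from -0.31 without CNO 3 to 0.31 without CNO 1. Abcg1 ranged from -1.07 without saline 3 to 0.53 without saline 5, and turned also without CNO 2 (0.32) and without saline 4 (0.016). The median of all tested genes was -0.89, and with other scalings and tools it ran from -0.998 (TMM) to 0.004 (DESeq2), with -0.08 under quantile scaling. Xist exceeded 10000 normalized counts in 2 CNO libraries and 1 saline library, and with a covariate for this class 2 genes were called. CNO 1 has the fewest reads. The mean saline level of Apoc1 would give 2.02 reads in CNO 1 and 8.78 in CNO 3, where 0 were found. The part of depth in the values of Nr1h3 and Apoc1 was not tested.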
